A study of Rattus norvegicus with 16 samples.

Results

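MicroRNAs of the whole hippocampus were compared between 3 rats with traumatic brain injury (TBI) that were also given JM6 (the group TBI+JM6) and 2 sham-operated rats. The 5 arrays were those titled TBI+JM6 drug and Sham, out of 16 arrays in 6 groups, and all 5 were on the same slide. The rats were Sprague-Dawley, male according to the study's methods, and their ages were not given in the sources used here. The injury was a severe lateral fluid percussion, a pulse of fluid onto the exposed dura, and tissue was taken 24 h later. JM6 is given in the labels as a drug name with no dose, route or time of administration. There was no array of injury without a drug on this slide, so the effect of injury and the effect of JM6 cannot be told apart. Other groups used here were TBI+E33, injury with another drug (2 arrays, the same slide, the same sham controls), and TBI and naive (3 arrays each, the other slide). TBI+PMI, injury with a further drug (3 arrays), also entered the fits. Its replicates 1 and 2 were on the other slide and replicate 3 on this one. It was the only group on both slides, so it alone set the fits' term for the slide.

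Each Agilent Rat miRNA array held 938 probes for 350 miRNAs, and a level is given here as the log2 of a probe's signal over the 75th percentile of its array, so that 0 is a bright probe and -6.74 is the floor at which dim signals were held. The rule took every miRNA whose probe was well above background on all arrays of at least 1 of the 2 groups, which left 225 of 350. All 225 passed through TBI+JM6 and 195 also passed through sham. The other 30 passed only through TBI+JM6. None of these 30 was well above background on sham replicate 2, which had 363 probes well above background against 437 on sham replicate 1 and 447, 433 and 442 on the TBI+JM6 arrays. At the edge, miR-760-3p and miR-296* were kept although they read -6.74 and -6.73 or lower on all 5 arrays. Left out were miR-448, which read -3.28 on sham replicate 1 and was at the floor on the other 4 arrays, and miR-211, which read -5.03 and -6.49 in sham and was at the floor in TBI+JM6.

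A miRNA is a short RNA that guides an Argonaute protein to messenger RNAs with a matching site, which lowers their translation or stability. Pairing rests mainly on the seed, bases 2 to 8 from the 5′ end, so miRNAs with the same seed share many targets. Many miRNAs are made from clusters, several hairpins cut from 1 transcript, and some are close to cell type markers, such as miR-124 of neurons or miR-223 of neutrophils and other myeloid cells.

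The mature sequences of the miRNAs on which the comparison turned are given from RefSeq (build GRCr8), 5′ to 3′, with the seed in capitals. RefSeq entries matched 202 of the 225 miRNAs. The first set holds the leukocyte miRNAs miR-223, from chrX:65151450-65151470 on the plus strand, and both arms of the miR-142 hairpin, chr10:73055119-73055177 on the plus strand, with the injury-responsive miR-21, chr10:71902653-71902674 on the minus strand.
miR-223-3p: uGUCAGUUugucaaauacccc
miR-142-3p: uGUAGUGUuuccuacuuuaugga
miR-142-5p: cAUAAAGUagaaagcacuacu
miR-21-5p: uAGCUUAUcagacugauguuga
The second set is the miR-17-92 cluster, chr15:98587861-98588622 on the plus strand, shown because 6 tested members stood higher together although they carry 4 different seeds. The seed AAAGUGC was shared by miR-17-5p and miR-20a, and GUGCAAA by miR-19a and miR-19b. The mature sequences of miR-17-5p, miR-19b and miR-92a are also encoded on chromosome X, so an array probe could not tell the 2 loci apart.
miR-17-5p: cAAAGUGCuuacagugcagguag
miR-20a-5p: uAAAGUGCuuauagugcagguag
miR-18a-5p: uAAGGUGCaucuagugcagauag
miR-19a-3p: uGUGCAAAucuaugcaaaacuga
miR-19b-3p: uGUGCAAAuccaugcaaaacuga
miR-92a-3p: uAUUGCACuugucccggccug
The third set holds the Dlk1-Dio3 members with the largest differences, all on the plus strand of chromosome 6: miR-431 at chr6:134326468-134326488, miR-494 at chr6:134550163-134550185, miR-543* at chr6:134552453-134552473 and miR-541 at chr6:134578434-134578458. The array's miR-543* matched the entry that RefSeq names miR-543-3p.
miR-431: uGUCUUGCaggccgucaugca
miR-494-3p: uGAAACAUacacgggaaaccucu
miR-543-3p: aAACAUUCgcggugcacuucu
miR-541-5p: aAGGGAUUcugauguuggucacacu
The fourth set holds miRNAs that read lower in TBI+JM6. They were miR-34b and miR-34c (chr8:60306133-60306679, minus strand), which share the seed GGCAGUG, miR-204 (chr1:229743493-229743514, plus strand), the oligodendrocyte miR-219-5p (chr3:33516561-33516581, minus strand) and miR-181b with its family member miR-181a (chr13:52037081-52037285, plus strand), which share ACAUUCA.
miR-34b-5p: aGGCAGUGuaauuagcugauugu
miR-34c-5p: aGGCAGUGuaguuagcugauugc
miR-204-5p: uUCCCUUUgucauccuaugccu
miR-219a-5p: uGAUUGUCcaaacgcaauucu
miR-181b-5p: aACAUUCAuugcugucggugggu
miR-181a-5p: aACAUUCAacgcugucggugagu

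The 16 arrays had 293 to 463 probes well above background and 0 saturated spots, and the 5 arrays compared correlated at 0.974 to 0.995 over the miRNAs tested. The tissue carried brain miRNAs throughout, with miR-124 at 3.38 and 3.66 in sham and 3.61, 3.56 and 3.50 in TBI+JM6, and miR-128 at 3.37 and 3.56 in sham and 3.30, 3.66 and 3.35 in TBI+JM6. Of 16 miRNAs typical of muscle, liver, gut and epithelium, 3 were tested and 10 were at the floor on all 5 arrays, among them the liver miRNA miR-122. Some arrays stood apart for miRNAs described here. Sham replicate 1 read high in miR-204, miR-34b and miR-34c. TBI replicate 1, an array of the other slide that shares the estimate of spread, read like the uninjured rats in these miRNAs, with miR-223 at -5.07 and miR-21 at 0.50 against -2.17 and -2.16, and 1.85 and 1.73, on the other TBI arrays. TBI+PMI replicate 1, injury with a further drug, read miR-223 at -4.06 against -1.84 and -2.01.

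In limma's fit over all 16 arrays, with a term for the slide, 0 of 225 miRNAs passed a Benjamini-Hochberg adjusted p of 0.05 in either direction (0.0% higher, 0.0% lower), and the smallest adjusted p was 0.0825. At an unadjusted p under 0.05, 19 were higher in TBI+JM6 (8.44%) and 4 lower (1.78%). Of those 19, 14 had passed the background filter in both groups and 5 only in TBI+JM6. Of all 30 that passed only in TBI+JM6, 24 had a higher and 6 a lower mean there. The 2 groups did not overlap for 38 higher miRNAs (16.9%) and 32 lower ones (14.2%). The median difference over all 225 was 0.02, and 121 had a higher (53.8%) and 104 a lower mean (46.2%). The split of 19 to 4 depended on the scaling and was 14 to 17 with the percentile over all probes, 14 to 14 with quantile normalization and 11 to 25 in the authors' processed table.

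The count of calls depended on which arrays set the spread. Within the 8 arrays of the slide 12 miRNAs were higher (5.33%) and 0 lower at limma's adjusted threshold, and within the 5 arrays alone 5 were higher (2.22%) and 0 lower. At an unadjusted p under 0.05 these fits had 26 higher (11.6%) and 7 lower (3.11%), and 27 higher (12%) and 6 lower (2.67%). The methods' t-test, at its own threshold of p and fold, had 16 higher (7.11%) and 0 lower. These 12 were miR-21, miR-223, miR-142-3p, miR-193, miR-27a, miR-494, miR-541 and 5 members of miR-17-92, all those tested but miR-19b. Without TBI replicate 1, an alternative chosen after its levels were seen, the 16-array fit called 7 higher and 0 lower: miR-21, miR-223, miR-142-3p, miR-431, miR-17-5p, miR-18a and miR-92a. The median standard deviation over miRNAs was 0.08 in sham and 0.13 in TBI+JM6, against 0.15 in naive, 0.15 in TBI and 0.21 in TBI+PMI. The TBI+PMI arrays lay on 2 slides, so its value also holds any difference between slides, unlike those of the other groups. With 3 arrays against 2 there are 10 ways to split the 5 arrays, so an exact permutation test by size of difference cannot go below p = 0.1 for a single miRNA. In whole tissue, more cells of a type and more RNA per cell cannot be told apart. The design text counts the samples as separate biological samples and gives 3 for sham, of which 2 were analysed here.

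**Figure D1:**
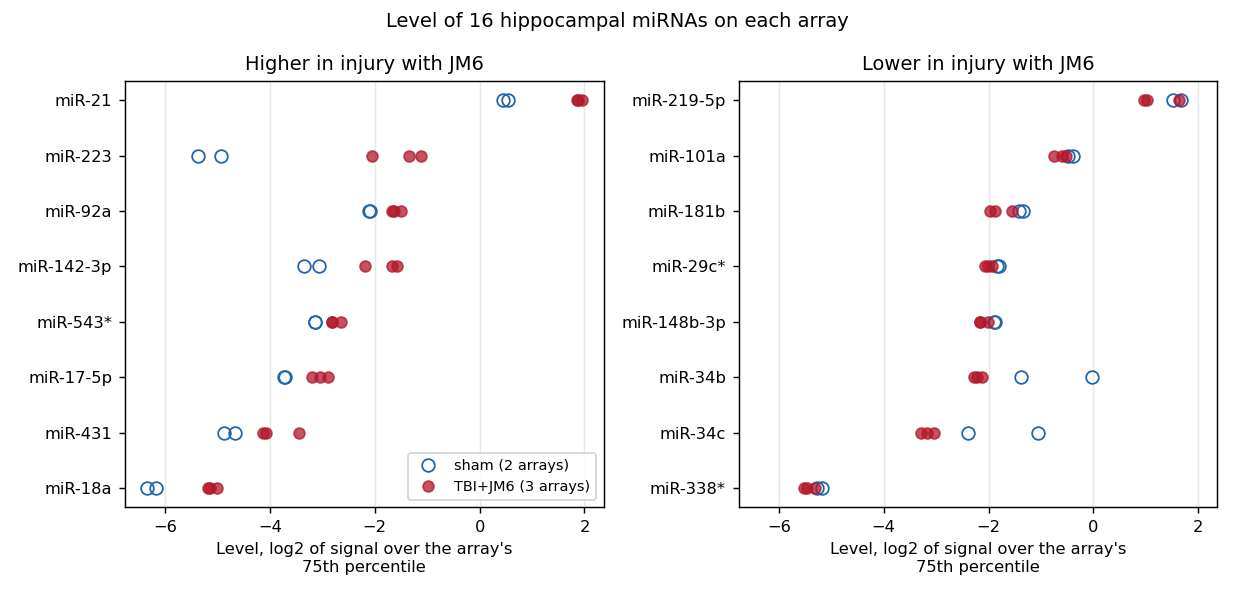
Level of 16 miRNAs on each of the 5 arrays, as log2 of signal over the array's 75th percentile (x axis), for the 8 miRNAs with the smallest p in each direction (y axis). Open circles are the 2 sham arrays and filled circles the 3 TBI+JM6 arrays. The 3 TBI+JM6 arrays lie above both sham arrays for all 8 miRNAs on the left, by most for miR-223, while sham replicate 1 stands off to the right for miR-34b and miR-34c.

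Of the 4 leukocyte miRNAs, 3 read higher on each TBI+JM6 array than on both sham arrays (16.9% of all miRNAs did) and the fourth overlapped. Of those 3, miR-142-5p entered the tests only through TBI+JM6. Past limma's adjusted threshold were 0 of 4 over 16 arrays (0.0% of all miRNAs) and 2 of 4 within the slide (5.33%). The largest difference was in miR-223, which fine-tunes myeloid activation. It read -5.38 and -4.92 in sham and -1.34, -1.13 and -2.05 in TBI+JM6. All 3 injured arrays were far above both sham arrays, a difference of 3.64 (SE 0.88, 95% interval 1.71 to 5.58) or 12.5-fold. Limma's adjusted p was 0.0873 over 16 arrays, 0.00238 over the 8 arrays of the slide and 0.0114 without TBI replicate 1.

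The hematopoietic miR-142 hairpin gave 2 arms with the same order. Its 3p arm read -3.35 and -3.06 in sham and -1.67, -1.58 and -2.18 in TBI+JM6, with no overlap. The difference was 1.39 (SE 0.41), 2.63-fold, with limma's adjusted p at 0.161 over 16 arrays and 0.0154 over the slide. The 5p arm was not well above background on either sham array and was held at -6.74 there, and read -5.58, -5.60 and -6.28 in TBI+JM6 (limma's adjusted p 0.339). No fold is given for it, since the lowest signal that counted as well above background was 63.9 on sham replicate 2 against 20.9 on sham replicate 1, so the sham arrays set unequal limits. In miR-142-3p, miR-142-5p and miR-223, TBI+JM6 replicate 3 was the lowest of the 3 injured arrays.

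The lymphocyte miRNA miR-150 read -1.20 and -0.94 in sham and -0.99, -0.92 and -1.09 in TBI+JM6, so the groups overlapped, unlike those of the other 3 leukocyte miRNAs. Leaving out miR-142-5p, which entered the tests only through TBI+JM6, 3 of 3 had a higher mean (53.8% of all miRNAs did) and 2 an unadjusted p under 0.05 (8.44% of all miRNAs), with a median difference of 1.39 against 0.02 over all miRNAs. The summed signal of all 4 leukocyte miRNAs, miR-142-5p included, is given in multiples of the array's 75th percentile. It was 0.56 and 0.68 in sham and 1.23, 1.34 and 0.95 in TBI+JM6.

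The red cell miRNAs miR-451 and miR-144, which come from 1 transcript and report blood in the tissue, varied within both groups. miR-451 read -1.30 and -2.45 in sham and -1.74, -0.97 and -1.56 in TBI+JM6, a difference of 0.45 (SE 0.64, limma's adjusted p 0.902). Sham replicate 1 lay inside the injured range and only sham replicate 2 below it, and without sham replicate 2 the difference was -0.12. miR-144 read -5.15 and -6.34 in sham and -5.32, -4.71 and -5.49 in TBI+JM6. It entered the tests only through TBI+JM6 and was not well above background on sham replicate 2. The part of retained blood in the leukocyte values was not tested. The endothelial miR-126 overlapped between the groups, with 0.02 and 0.22 in sham and 0.17, 0.42 and 0.09 in TBI+JM6, and 0 of 4 vessel miRNAs had an unadjusted p under 0.05.

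miR-21, which represses the regulator Pdcd4 and is induced in many injured tissues, was also higher. It read 0.44 and 0.55 in sham and 1.95, 1.87 and 1.86 in TBI+JM6. Its 3 injured arrays lay close together and far above sham, and the difference of 1.40 (SE 0.33, 95% interval 0.69 to 2.12) was 2.64-fold. Limma's adjusted p was 0.0864 over 16 arrays, 0.000367 over the slide, 0.00259 over the 5 arrays and 0.00122 without TBI replicate 1. In the methods' t-test, 1 miRNA passed Benjamini-Hochberg adjustment (0.444%), and it was miR-21.

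The other miRNAs of the inflammation list had smaller differences. miR-146a, an inhibitor of Toll-like receptor signalling, read -4.00 and -3.51 in sham and -3.24, -3.05 and -3.22 in TBI+JM6, with no overlap and a difference of 0.59 (SE 0.28, limma's adjusted p 0.444). The activity-regulated miR-132 read -0.49 and -0.24 in sham and -0.01, -0.03 and 0.47 in TBI+JM6. Its difference was 0.51 (SE 0.17, limma's adjusted p 0.191), and it was highest on TBI+JM6 replicate 3. Its neighbour miR-212, cut from the same transcript, read 0.26 and 0.19 in sham and -0.71, 0.28 and 0.41 in TBI+JM6, so the 2 miRNAs of that locus did not share an order. miR-146b and miR-221 overlapped between the groups, the first reading -1.87 and -1.76 in sham and -1.59, -1.91 and -1.58 in TBI+JM6. Of 8 tested, 7 had a higher mean (53.8% of all miRNAs), 4 were higher without overlap (16.9%) and 2 had an unadjusted p under 0.05 (8.44%), and the median difference was 0.30 against 0.02 over all miRNAs.

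The miR-17-92 cluster is a polycistron that promotes proliferation through repression of Bim and cell cycle inhibitors. All of its 6 tested members had a higher mean (53.8% of all miRNAs did), with no overlap between the groups (16.9% of all miRNAs in that direction). Of these, miR-18a entered the tests only through TBI+JM6. Over the other 5, which passed the filter in both groups, 5 had an unadjusted p under 0.05 (8.44% of all miRNAs did in that direction) and the median difference was 0.55. miR-17-3p and miR-20a* were not tested because they were at the floor on all 5 arrays.

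The largest difference of the cluster was in its dimmest member. miR-18a read -6.17 and -6.35 in sham and -5.01, -5.14 and -5.19 in TBI+JM6. The difference was 1.15 (SE 0.23), 2.21-fold, and limma's adjusted p was 0.0825 over 16 arrays and 0.00258 over the slide. It was well above background on 1 of the 2 sham arrays, so it entered the tests only through TBI+JM6.

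Within the cluster, the members that share a seed differed by similar amounts. miR-17-5p read -3.74 and -3.72 in sham and -2.90, -3.05 and -3.20 in TBI+JM6, a difference of 0.68 (SE 0.18, limma's adjusted p 0.113). miR-20a, which has the same seed, read -1.98 and -1.87 in sham and -1.23, -1.42 and -1.48 in TBI+JM6, a difference of 0.55 (SE 0.18, limma's adjusted p 0.191). Over the 8 arrays of the slide these adjusted p-values were 0.0232 and 0.0473. The pair miR-19a and miR-19b differed by 0.58 (SE 0.24) and 0.36 (SE 0.16). miR-19a read -4.22 on both sham arrays and -3.50, -3.65 and -3.78 in TBI+JM6. miR-19b read -0.96 and -0.95 in sham and -0.46, -0.68 and -0.65 in TBI+JM6, and limma's adjusted p was 0.364 for miR-19a and 0.444 for miR-19b. The last hairpin, miR-92a, read -2.08 and -2.11 in sham and -1.51, -1.64 and -1.68 in TBI+JM6, a difference of 0.49 (SE 0.14, limma's adjusted p 0.134). In all 6 members TBI+JM6 replicate 1 was the highest array.

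The paralog cluster miR-106b, miR-93 and miR-25, on another chromosome, was mixed. Of these 3 members 1 had a higher and 2 a lower mean, with a median of -0.05. miR-106b and miR-93 have the seed AAAGUGC of miR-17-5p and miR-20a, and miR-25 has the seed AUUGCAC of miR-92a. miR-106b read -1.69 and -1.62 in sham and -1.56, -1.77 and -1.77 in TBI+JM6. miR-93 had no overlap, at -2.74 and -2.71 in sham and -2.45, -2.64 and -2.66 in TBI+JM6. miR-15b, of the pro-apoptotic miR-15/16 family that represses Bcl2, read -1.73 and -1.87 in sham and -1.52, -1.76 and -1.80 in TBI+JM6, so it overlapped. Of 5 members of that family 3 were lower without overlap (14.2% of all miRNAs) and 0 had an unadjusted p under 0.05.

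**Figure D2:**
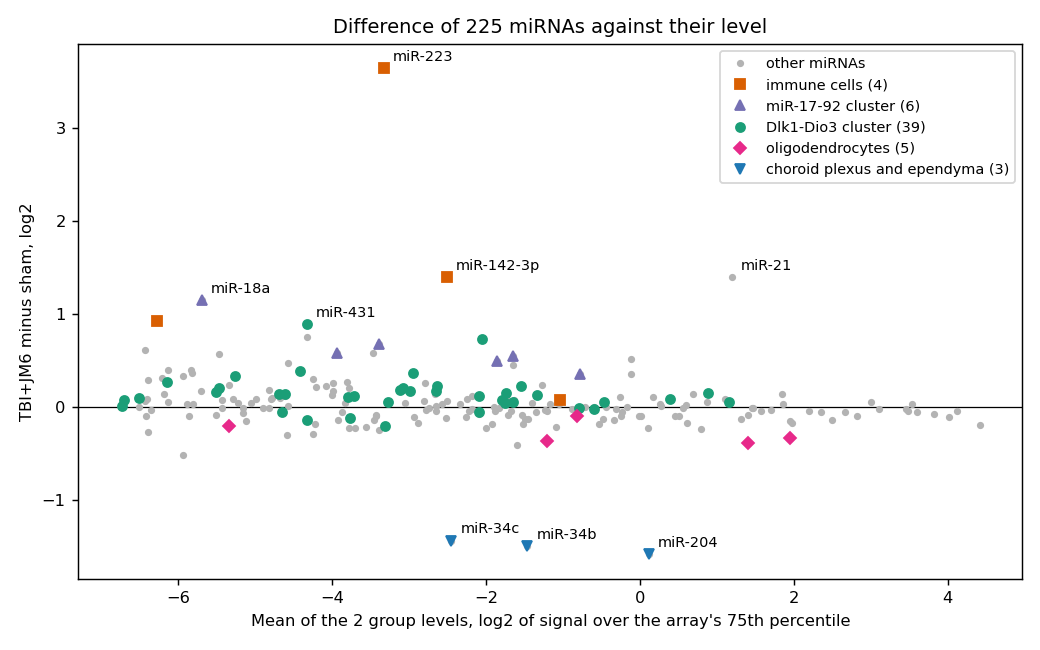
Difference TBI+JM6 minus sham (y axis, log2) against the mean of the 2 group levels (x axis, log2 of signal over the array's 75th percentile) for the 225 miRNAs, with 5 lists in colour and their number of members in the key. The leukocyte and miR-17-92 members lie above 0, the 3 choroid plexus and ependyma members lie near -1.5, and most miRNAs lie close to 0 at every level.

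The imprinted Dlk1-Dio3 region, a large cluster expressed from the maternal chromosome and rich in neuronal miRNAs, had 39 tested members. Of these, 32 had a higher mean in TBI+JM6 (53.8% of all miRNAs did) and 7 a lower one. The filter was passed in both groups by 35 of the 39, and the rest entered the tests only through TBI+JM6. Of those 35, 28 had a higher mean, as did 97 of the 195 miRNAs that passed in both groups. Of all 39, 8 were higher without overlap (16.9% of all miRNAs) and 3 lower (14.2%). At an unadjusted p under 0.05, 4 of the 39 were higher (8.44%). The counts of 8 and 4 lay near the shares over all miRNAs, while the 32 lay above its share and the 3 below. The median difference was 0.12, a small shift, and ran from -0.21 to 0.89. Without scaling between arrays 9 of 39 had a higher mean and the median was -0.08, while that of all miRNAs was -0.19. In the authors' processed values, 15 of 35 had a higher mean and the median was -0.02, while that of all miRNAs was -0.10. Over the 8 ways of scaling or summarising tried, the median relative to all miRNAs was 0.06 to 0.16, and 26 to 32 members lay above the median of all miRNAs.

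The largest differences of the cluster were in miR-431 and miR-494. miR-431, a miRNA linked in mouse to axon regeneration, read -4.88 and -4.66 in sham and -4.08, -4.13 and -3.44 in TBI+JM6. The difference was 0.89 (SE 0.21), 1.85-fold, with limma's adjusted p at 0.0864 over 16 arrays, 0.101 over the slide and 0.0472 without TBI replicate 1. TBI+JM6 replicate 3 stood above the others. miR-494 read -2.46 and -2.36 in sham and -1.75, -1.70 and -1.60 in TBI+JM6, a difference of 0.73 (SE 0.32) with limma's adjusted p at 0.444 over 16 arrays and 0.0232 over the slide.

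miR-543* was nearly identical on the 2 sham arrays, at -3.13 on both, and read -2.83, -2.65 and -2.82 in TBI+JM6. The difference of 0.37 (SE 0.09) had limma's adjusted p at 0.0879. miR-541 read -4.58 and -4.64 in sham and -4.18, -4.19 and -4.28 in TBI+JM6, a difference of 0.39 (SE 0.12, limma's adjusted p 0.185 over 16 arrays and 0.0291 over the slide). The bright members overlapped or nearly so: miR-434 read 1.13 on both sham arrays and 1.01, 1.38 and 1.16 in TBI+JM6. miR-127 read 0.76 and 0.85 in sham and 0.90, 1.04 and 0.92 in TBI+JM6. In 3 of these 6 members, miR-543*, miR-434 and miR-127, TBI+JM6 replicate 2 was the highest array. miR-379 and miR-758 overlapped between the groups.

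Neuronal miRNAs outside the cluster overlapped between the groups in every tested case. Of 13 tested, 7 had a higher and 6 a lower mean, 0 had an unadjusted p under 0.05, and the median difference was 0.02. miR-9*, a partner of miR-9 in neuronal fate, read 3.12 and 3.13 in sham and 3.18, 3.01 and 3.12 in TBI+JM6. Their summed signal was 48.8 and 53.6 in sham and 51.9, 54.7 and 49.2 in TBI+JM6, so it overlapped.

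The oligodendrocyte miRNAs, which promote differentiation of myelinating cells, were lower than both sham arrays on TBI+JM6 replicates 2 and 3. On replicate 1 only miR-338*, described below, was lower than both. miR-219-5p read 1.52 and 1.68 in sham and 1.63, 1.01 and 0.97 in TBI+JM6. The difference was -0.39 (SE 0.17, unadjusted p 0.042, limma's adjusted p 0.444), and TBI+JM6 replicate 1 was inside the sham range. Its opposite arm from the same hairpin, miR-219-2-3p, read -0.98 and -1.06 in sham and -1.06, -1.64 and -1.48 in TBI+JM6, a difference of -0.37 (SE 0.18). miR-338, which acts with miR-219, read 2.19 and 2.04 in sham and 2.18, 1.70 and 1.47 in TBI+JM6, a difference of -0.33 (SE 0.19).

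The dim other arm, miR-338*, read -5.19 and -5.27 in sham and -5.53, -5.31 and -5.47 in TBI+JM6, a difference of -0.21 (SE 0.08) that turned to 0.60 with normexp background correction. Of 5 tested members, 5 had a lower mean (46.2% of all miRNAs), 1 did not overlap (14.2%) and 2 had an unadjusted p under 0.05 (1.78% of all miRNAs did in that direction). The fifth member was miR-138, which is also on the neuron list and had the smallest difference of the 5, -0.10. The median was -0.33. Their summed signal was 8.57 and 8.39 in sham and 8.74, 6.12 and 5.65 in TBI+JM6, with replicate 1 above both sham arrays.

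In the miR-181 family, which tunes T cell receptor signalling and is abundant in brain, TBI+JM6 replicates 2 and 3 were again the lowest for the 2 brightest members. miR-181b read -1.43 and -1.34 in sham and -1.56, -1.96 and -1.88 in TBI+JM6, with no overlap. The difference was -0.41 (SE 0.13), with limma's adjusted p at 0.191 over 16 arrays, 0.171 over the slide and 0.066 without TBI replicate 1. miR-181a, encoded beside it with the same seed and brighter, read 0.83 and 1.0 in sham and 1.03, 0.41 and 0.59 in TBI+JM6, a difference of -0.23 (SE 0.16). miR-181c read -2.71 and -2.81 in sham and -2.67, -2.70 and -3.01 in TBI+JM6, so it overlapped. All 4 members had a lower mean (46.2% of all miRNAs) and 1 had an unadjusted p under 0.05 (1.78%), with a median of -0.23.

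Other miRNAs had small negative differences. miR-148b-3p, of a family that targets the DNA methyltransferase Dnmt1, read -1.87 and -1.90 in sham and -2.01, -2.17 and -2.16 in TBI+JM6, a difference of -0.23 (SE 0.10, limma's adjusted p 0.444). miR-101a, which represses the histone methyltransferase Ezh2, read -0.48 and -0.39 in sham and -0.53, -0.60 and -0.74 in TBI+JM6, a difference of -0.19 (SE 0.09). miR-29c* differed by -0.18 (SE 0.09), and the 3 members of the miR-29 family had a median of -0.14. miR-148b-3p, miR-101a and miR-29c* had no overlap between the groups, and none passed limma's adjusted threshold. The let-7 family (8 members, median -0.05), the miR-30 family (5 members, median -0.09) and the group of miR-125, miR-99a, miR-99b and miR-100 (5 members, median -0.08) held 0 members at an unadjusted p under 0.05.

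The largest negative differences were in miR-204, the leading miRNA of choroid plexus epithelium, and in miR-34b and miR-34c, which are made in ciliated ependymal cells. miR-204 read 2.17 and -0.34 in sham and -0.55, -0.88 and -0.59 in TBI+JM6. The difference of -1.59 (SE 0.84, 95% interval -3.42 to 0.24, limma's adjusted p 0.532) rested on sham replicate 1, and without it was -0.33. miR-34b read -0.04 and -1.38 in sham and -2.12, -2.29 and -2.22 in TBI+JM6, a difference of -1.50 (SE 0.69, limma's adjusted p 0.444). Sham replicate 1 was the highest, sham replicate 2 was still above all 3 injured arrays, and without sham replicate 1 the difference was -0.83. miR-34c read -1.06 and -2.40 in sham and -3.04, -3.29 and -3.17 in TBI+JM6, a difference of -1.44 (SE 0.68, limma's adjusted p 0.444) that became -0.77 without sham replicate 1.

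The p53-responsive miR-34a, which has the seed of miR-34b and miR-34c at another locus, overlapped between the groups, with -0.61 and -0.27 in sham and -0.47, -0.32 and -0.53 in TBI+JM6. The 3 tested choroid plexus and ependyma miRNAs had a median of -1.50, and -0.77 without sham replicate 1. The summed signal of all 8 members of that list on the array, tested or not, was 6.13 and 1.38 in sham and 1.06, 0.87 and 1.01 in TBI+JM6. The choroid miRNAs miR-448 and miR-211, which did not pass the filter, were also brighter on sham replicate 1 than on the other 4 arrays, as given above. The same 3 tested miRNAs were also high on naive replicate 2 (miR-204 at 1.03) and TBI+PMI replicate 1 (miR-204 at 2.56). How much choroid plexus each dissection held was not tested.

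**Figure D3:**
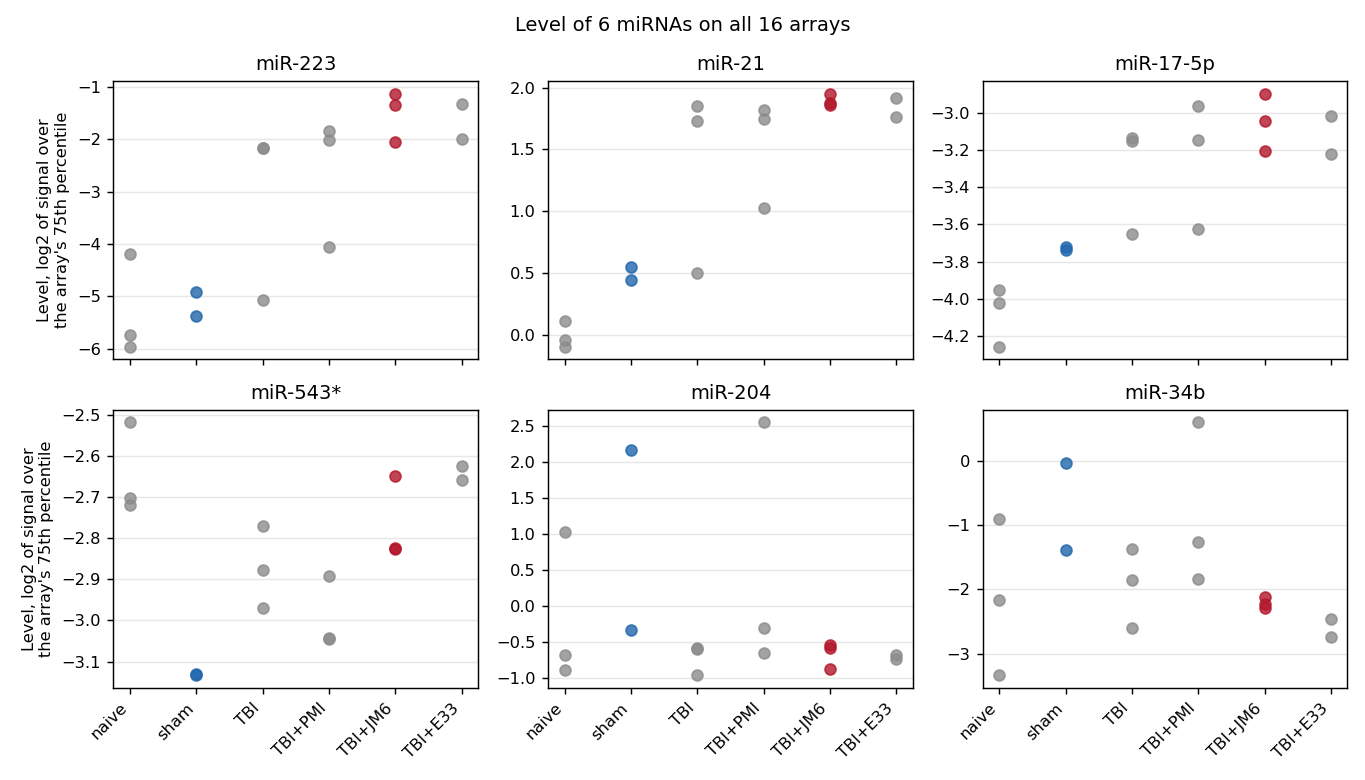
Level of 6 miRNAs (y axis, log2 of signal over the array's 75th percentile, a separate axis for each panel) on all 16 arrays by group (x axis), with sham in blue, TBI+JM6 in red and the other groups in grey. For miR-223, miR-21 and miR-17-5p, 1 TBI array and 1 TBI+PMI array lie below the rest of their group while the 3 TBI+JM6 arrays lie above both sham arrays. For miR-204, 1 array each of naive, sham and TBI+PMI stands apart.

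The miRNAs miR-142-5p, miR-146a, miR-132, miR-494, miR-541, miR-219-2-3p and miR-27a fell outside the rule for naming and were chosen after their values were seen. miR-193 read -4.64 and -4.76 in sham and -3.92, -4.02 and -3.90 in TBI+JM6. The difference was 0.75 (SE 0.30), with limma's adjusted p at 0.361 over 16 arrays and 0.00306 over the slide, but its second probe was at the floor on all 5 arrays. Its neighbour miR-365 read -2.83 and -3.01 in sham and -2.49, -2.69 and -2.80 in TBI+JM6. miR-27a read -0.33 and -0.27 in sham and 0.01, 0.08 and 0.08 in TBI+JM6, a difference of 0.35 (SE 0.17, limma's adjusted p 0.444 over 16 arrays and 0.0404 over the slide). The 5 tested miRNAs of the miR-23/27/24 clusters had a median of 0.06.

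Most miRNAs are measured by several probes. Of 222 miRNAs with a second probe, its difference had the same sign as the brightest probe's in 169. Of 23 at an unadjusted p under 0.05, the second probe had the same sign in 19. The exceptions were miR-193, miR-466b, miR-342-5p and miR-674-5p. miR-223 differed by 3.56 and miR-21 by 1.81 on the second probe.

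The contrast of injury without a drug, TBI minus naive, shares no array with TBI+JM6 minus sham, but it lies on the other slide and has other controls. It was tested over the same 225 miRNAs, which were filtered on the TBI+JM6 and sham arrays and not on those of TBI or naive. In it limma's 16-array fit called 4 higher (1.78%), which were miR-17-5p, miR-18a, miR-21 and miR-92a, and 0 lower. At an unadjusted p under 0.05 there were 13 higher (5.78%) and 32 lower (14.2%). miR-21 differed by 1.37 there and by 1.40 here, and the difference between the 2 contrasts was 0.03 (SE 0.44, limma's adjusted p 0.969). miR-223 differed by 2.17 there and 3.64 here, and the difference of 1.47 (SE 1.19) had limma's adjusted p at 0.584. Without TBI replicate 1 the TBI minus naive values were 1.80 for miR-21 and 3.14 for miR-223. All 6 miR-17-92 members were higher in both, with a median of 0.73 in TBI minus naive and 0.56 in TBI+JM6 minus sham. Among them, miR-18a had entered the tests only through TBI+JM6.

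The Dlk1-Dio3 cluster had opposite signs in the 2 contrasts under the scaling used, but not without scaling or in the authors' table, where both medians were below 0 (-0.08 and -0.31, and -0.02 and -0.18). Relative to the median of all miRNAs, its median was 0.06 to 0.16 in TBI+JM6 minus sham and -0.22 to -0.12 in TBI minus naive over the 8 ways of scaling or summarising. Of 39 members, 32 had a higher mean in TBI+JM6 than in sham, and 28 of the 35 that passed the filter in both groups did. In TBI, 3 of the 39 were on average higher than in naive. The medians over the 39 were 0.12 and -0.23, against medians of 0.02 and -0.05 over all miRNAs. miR-543* differed by 0.37 here and -0.23 there, a difference of 0.59 (SE 0.12, limma's adjusted p 0.108). miR-541 differed by 0.39 here and -0.31 there, a difference of 0.70 (SE 0.16, limma's adjusted p 0.118). Across all miRNAs 0 of 225 passed the adjusted threshold for this difference (0.0% higher, 0.0% lower). At an unadjusted p under 0.05, 22 were higher (9.78%) and 5 lower (2.22%), and 15 of these 27 were Dlk1-Dio3 members. Without TBI replicate 1, 4 of 39 were on average higher in TBI than in naive and the median was -0.21.

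The controls of the 2 contrasts differed for miR-543*. It read -2.70, -2.72 and -2.52 in naive against -3.13 and -3.13 in sham, and -2.88, -2.77 and -2.97 in TBI against -2.83, -2.65 and -2.82 in TBI+JM6. The sham arrays were the lowest of all 16 for this miRNA. Some probes read differently on the 2 slides, such as miR-212, at -2.38, -2.81 and -2.75 in naive against 0.26 and 0.19 in sham. Whether sham surgery, the slide or JM6 sets the difference cannot be told apart.

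**Figure D4:**
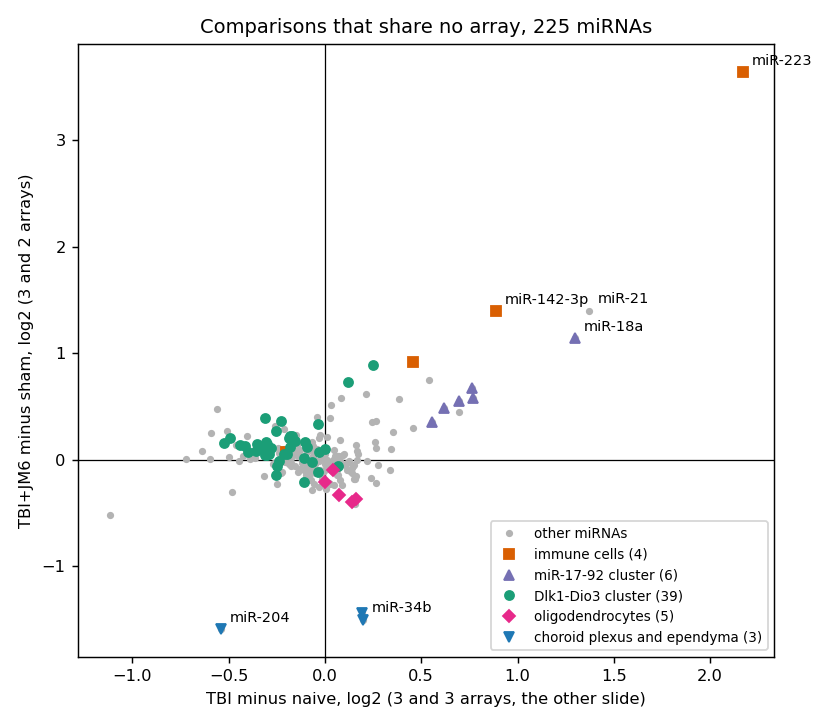
Difference TBI+JM6 minus sham (y axis, log2) against TBI minus naive (x axis, log2) for the 225 miRNAs, with 5 lists in colour. The miR-17-92 members and most leukocyte miRNAs lie in the upper right, and most Dlk1-Dio3 members lie in the upper left, above 0 on the y axis and below 0 on the x axis, which did not hold without scaling or in the authors' table.

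Across the 225 miRNAs the 2 contrasts had Pearson's r of 0.53 and Spearman's rho of -0.04, and the same sign in 88. These are descriptions across miRNAs, which are not independent and include clusters measured together. A few miRNAs, such as miR-223 and miR-21, had large differences in both contrasts, while most lay near 0.

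TBI+E33 minus sham uses the same 2 sham arrays, so its values are set beside those of TBI+JM6 without a comparison of the 2 contrasts. It gave 3.50 for miR-223, 1.35 for miR-21, 1.27 for miR-142-3p, 0.61 for miR-17-5p and 0.49 for miR-543*. It gave -1.89 for miR-34b, -0.27 for miR-181b and -0.11 for miR-219-5p. In the direct test of TBI+JM6 against TBI+E33, 0 of 225 miRNAs passed the adjusted threshold in limma (0.0% in each direction), and at an unadjusted p under 0.05 there were 1 higher (0.444%) and 3 lower (1.33%). The difference was 0.15 (SE 0.88) for miR-223 and 0.05 (SE 0.33) for miR-21, and with these standard errors neither value shows that the groups were alike. Of the 4, miR-192 read -4.66, -3.75 and -4.77 in TBI+JM6 and -3.77 and -3.69 in TBI+E33, and its neighbour miR-194 read -5.29, -4.58 and -5.71 against -4.60 and -4.57. In both, TBI+JM6 replicate 2 read like TBI+E33. The others were miR-338*, the one that was higher in TBI+JM6, and miR-330*, which was named after its values were seen.

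**Figure D5:**
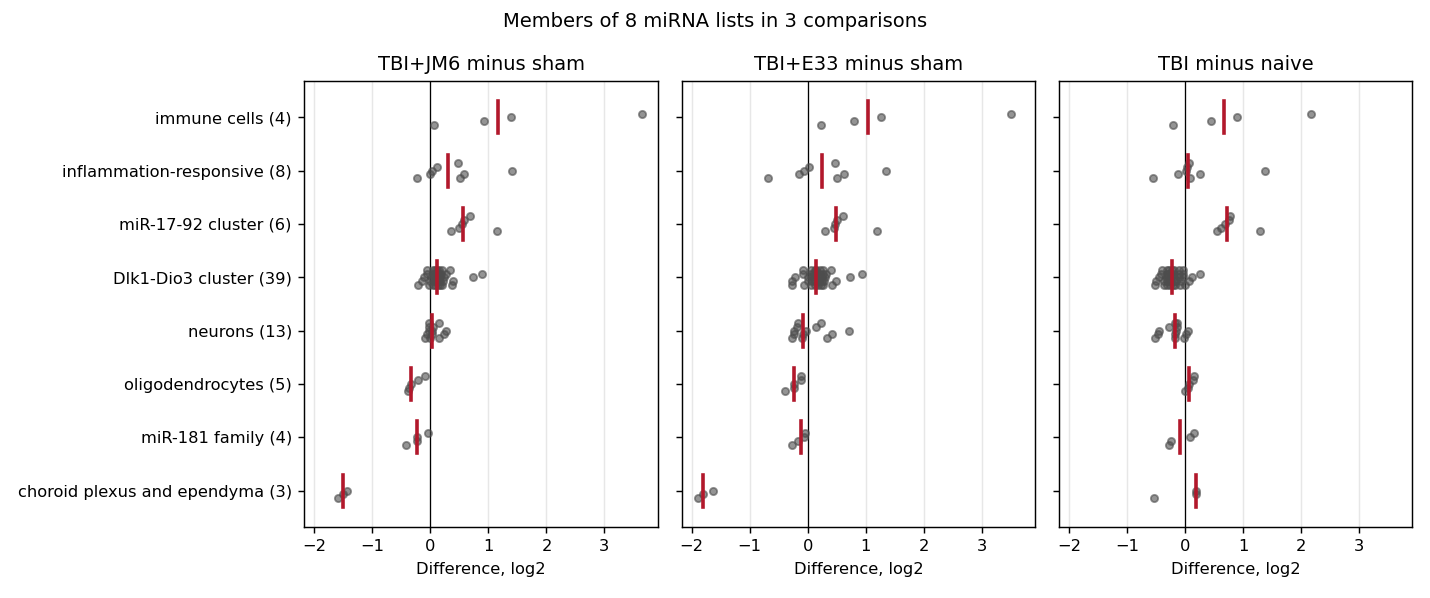
Differences (x axis, log2) of the members of 8 miRNA lists (y axis, number of tested members in brackets) in TBI+JM6 minus sham, TBI+E33 minus sham and TBI minus naive. Each point is a miRNA and each red line a list's median. The first 2 panels share the sham arrays. The Dlk1-Dio3 median is 0.12 in the first panel, 0.15 in the second and -0.23 in the third, and that of the first panel is -0.08 without scaling between arrays and -0.02 in the authors' table.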

How the data were processed

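Of 16 Agilent Rat miRNA arrays, the 5 of TBI+JM6 and sham were compared. The deposited scanner files, per the file headers made by Agilent Feature Extraction 9.5.3.1 with probe positions on rn4, hold spot intensity with background subtracted and no scaling between arrays. The authors' processed table (741 of the 938 probes) holds intensity values equal to total probe signal times 1 constant per array, whose origin is not given in the sources used here; the study's methods name GeneSpring GX11. Its direction and scale follow the scanner values.

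Replicate spots without outlier flags were averaged and divided by their array's 75th percentile, taken from the 284 probes that every one of the 16 arrays measured above background (1945 to 4042). Values were then held at -6.74 and taken as log2, and the brightest probe stood for each miRNA. A probe counted as well above background when over 0.5 of its spots were. limma 3.58.1 (R 4.3.3; lmFit, eBayes) used all 16 arrays with group and slide as terms, although the study's methods name a t-test, which was an alternative (fold over 1.2). The fit was tested on simulated data. The number of arrays limits the precision.

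Alternatives were other arrays in the fit, no slide term, normexp (offset 50), other scalings, summed or second probes, the authors' table, other filters and floors, an intensity trend, a replicate block and leaving out each array. Named miRNAs were the 8 with the smallest p in each direction, the 3 brightest of each of 20 lists, the 10 the study follows and those at the filter's edge; others are marked. The members and lists were chosen with earlier results of these data known. Python 3.11.15, pandas 2.3.3 and scipy 1.17.1 were used.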

Additional observations from a re-analysis of the deposited data

How the results depend on the processing

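The count of 0 higher miRNAs became 12 within the 8 arrays of the slide, 5 within the 5 arrays, 1 with quantile normalization, and 16 in the methods' t-test at its own threshold (1 after Benjamini-Hochberg adjustment). Chosen after seeing the data, it became 7 without TBI replicate 1 and 12 without both the first TBI and the first TBI+PMI arrays, and the latter fit gave 2 miRNAs for the difference between the injury contrasts. The count of 0 lower miRNAs became 1 with quantile normalization and ran from 0 to 1 when single arrays were left out, with miR-99b* without sham replicate 1 and miR-192 without TBI+JM6 replicate 2. For TBI+JM6 against TBI+E33 it ran from 0 to 2, the 2 without TBI+JM6 replicate 2. Leaving out an array of TBI+JM6 or sham gave 0 higher miRNAs. A spread pooled over fewer arrays is the construction of the first 2 settings; the cause of the other changes was not tested.

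Of 31 miRNAs whose difference is given, 786 values under alternatives held 735 with the same direction and call, 40 with the same direction and a call gained, and 11 with another sign, counting 4 differences between the injury contrasts. miR-338* turned to 0.60 with normexp, and miR-451 to -0.12 without sham replicate 2 (1.03 without sham replicate 1). The miR-21 difference between the injury contrasts, 0.03, turned to -0.12 with the percentile over all probes, -0.0054 with quantile normalization, -0.0898 without scaling, -0.0726 with summed probes, -0.16 in the authors' table, -0.0122 with the replicate block, -0.03 without sham replicate 1 (0.0849 without sham replicate 2), and -0.40 without TBI replicate 1 and also without the first TBI and TBI+PMI arrays. The second probe of miR-193 gave no value.

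Normexp moved the median of all miRNAs from 0.02 to 0.26, no scaling to -0.19 and the authors' table to -0.10. Replicate numbers were not used as pairs in the main fit. Deviations of same-numbered arrays correlated at -0.03 and -0.07. With 2 sham arrays, whose deviations mirror each other, these values cannot decide whether samples were paired. With the replicate block 0 miRNAs passed in either direction and 18 higher and 5 lower had an unadjusted p under 0.05. Signal over background limits miR-18a, miR-142-5p and the other miRNAs near the floor.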
